A study of Diospyros lotus with 24 samples.

Results

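Father-only contigs are assembled bud transcripts of the dioecious persimmon Diospyros lotus that were counted in the male parent of a cross, not in its female parent, and in some of the offspring but not others. A contig is a stretch of transcript put together from overlapping reads. Members had at least 5 mRNA counts in the father and 0 in the mother, and each of 17 progeny trees had either 0 counts ("off") or at least 3 ("on"). Between 3 and 14 progeny had to be on, and contigs at 0 in all 9 daughters were dropped. The rule kept 109 of 417827 contigs. It applies to 4.39% of the 2481 contigs with at least 5 counts in the father and 0 in the mother. These counts chose the members, so their parental difference and the presence of on and off trees are a description and no result.

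The trees belong to the KK family, a cross within the cultivar Kunsenshi that numbers 57 trees. Bud mRNA was counted in 9 sons, 9 daughters, the father and the mother, with 1 library per tree. The same 2 parents also gave 1 bud small RNA library each. Bud collection took place on June 17 and on July 4, 2013, which the labels call early stages of male and of female primordia. No library is tied to a date, so date and sex may coincide and then cannot be told apart.

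In an outcrossing tree, a gene copy or allele carried on 1 of the father's 2 homologous chromosomes passes to each offspring with an even chance. A transcript assembled from such a copy, and absent from the mother, is then on in some offspring and off in others, near a 1:1 ratio. Copies close together on a chromosome are seldom separated by crossing over in the formation of pollen, and so go to the same offspring. Copies on the father's Y chromosome go to sons, since males of this species are XY. No gene name, position or sequence is paired with a contig in the files, so the members are described by their identifiers.

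Totals ran from 3527282 counts in daughter 1 to 15314430 in son 6 among the 17 usable progeny, and were 6840388 in the father and 6925001 in the mother. Son 5 held 387 counts and was not judged. Levels are given as CPM, counts per 1000000 counts of the library. A count of 0 allows up to 3 counts, which is 0.196 to 0.851 CPM in a progeny library and 0.433 CPM in the mother. These floors, and all intervals below, cover counting error only.

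A pair of sons had nearly the same on/off states. Sons 7 and 9 were in the same state in 107 of the 109 members, or 98.2%. The next closest trees, daughters 4 and 5, matched in 76.1%, and the median over all 136 tree pairs was 53.2%. The lowest agreement was 25.7%. The 2 members that parted sons 7 and 9 had 4 counts in one of these sons and 0 in the other. The same pair led in contigs that the rule did not choose. In 138 mother-only contigs, picked by the mirrored rule (at least 5 counts in the mother, 0 in the father, contigs at 0 in all sons dropped), they matched in 136, or 98.6%. There the next closest pair matched in 76.8%. In 166 contigs with at least 5 counts in both parents that were on in 3 to 14 progeny they matched in 93.4%, and the next pair in 83.1%. Over 63119 contigs with a mean above 10 counts, these libraries were also the closest pair. Their mean chi-square per contig was 3.28, where counting error alone gives about 1 and the median pair had 5.72. The next pair, daughter 1 and son 3, had 3.47, although these trees shared their on/off state in only 25.7% of members. Beyond counting error this measure grows with library depth. Daughter 1 and son 3 had totals of 3527282 and 5823321 counts, against 6707373 and 7514848 in sons 7 and 9. The 2 values therefore do not show how much closer one pair was than the other. The counts of sons 7 and 9 were not identical, and the cause of their closeness was not tested. No tree has 2 libraries, so there is no value to expect for a tree sampled or prepared again. The labels name different trees, but whether both libraries come from separate trees was not tested. If they do not, the 8 sons and 17 progeny below hold 1 tree fewer, and the main counts are therefore also given without son 9.

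**Figure D1:**
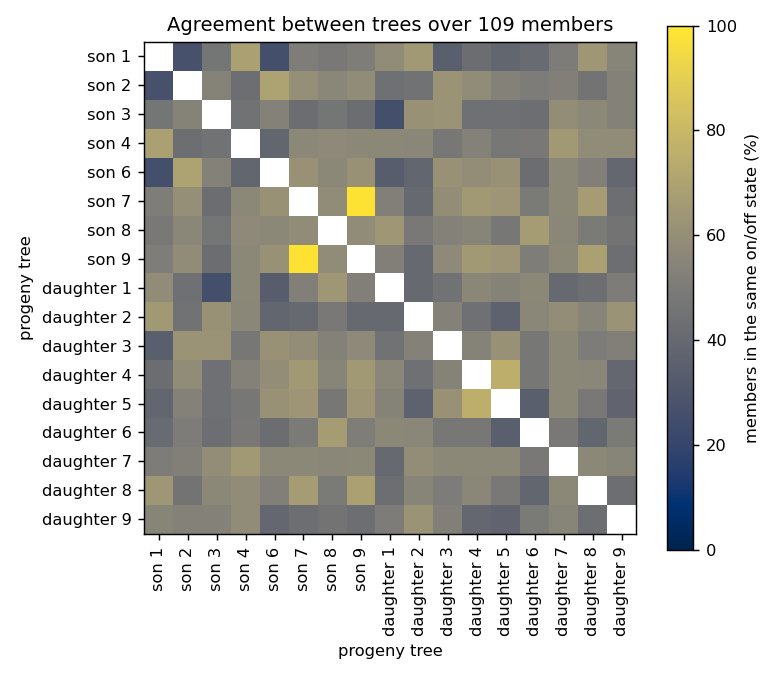
Share of the 109 father-only contigs in the same on/off state (colour, %) for each pair of the 17 progeny trees on both axes, with the diagonal left blank. Sons 7 and 9 stand out at 98.2% (1 cell on each side of the diagonal), and all other pairs lie between 25.7% and 76.1%.

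Son 6 stood apart in another way. It was on in 91 of the 109 members, or 83.5%, where the other 16 trees were on in 31 to 70. In the members that were on in a tree, its CPM was divided by the mean CPM of the other on trees. The median of this ratio was 0.560 in son 6, against 0.828 to 1.23 in the other trees. In mother-only contigs the ratio was 0.605 in son 6 and 0.804 to 1.17 elsewhere. Son 6 was on in 59.4% of them and did not stand apart there. Over the 17 trees that share ran from 23.9% to 76.1%, with a median of 57.2%. Son 6 also had 3961 contigs with at least 5 counts that were at 0 in both parents, against 283 to 2128 in the other trees. Son 6 was also the deepest library, and a deeper library passes fixed count minimums more easily. The 3 counts of an on call were 0.196 CPM in son 6, against 0.346 to 0.851 CPM in the other usable progeny. Whether depth accounts for these values, or the library holds RNA of more than 1 tree, was not tested. An on call in son 6 is therefore less certain, and values without son 6 are given beside those they touch.

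**Figure D2:**
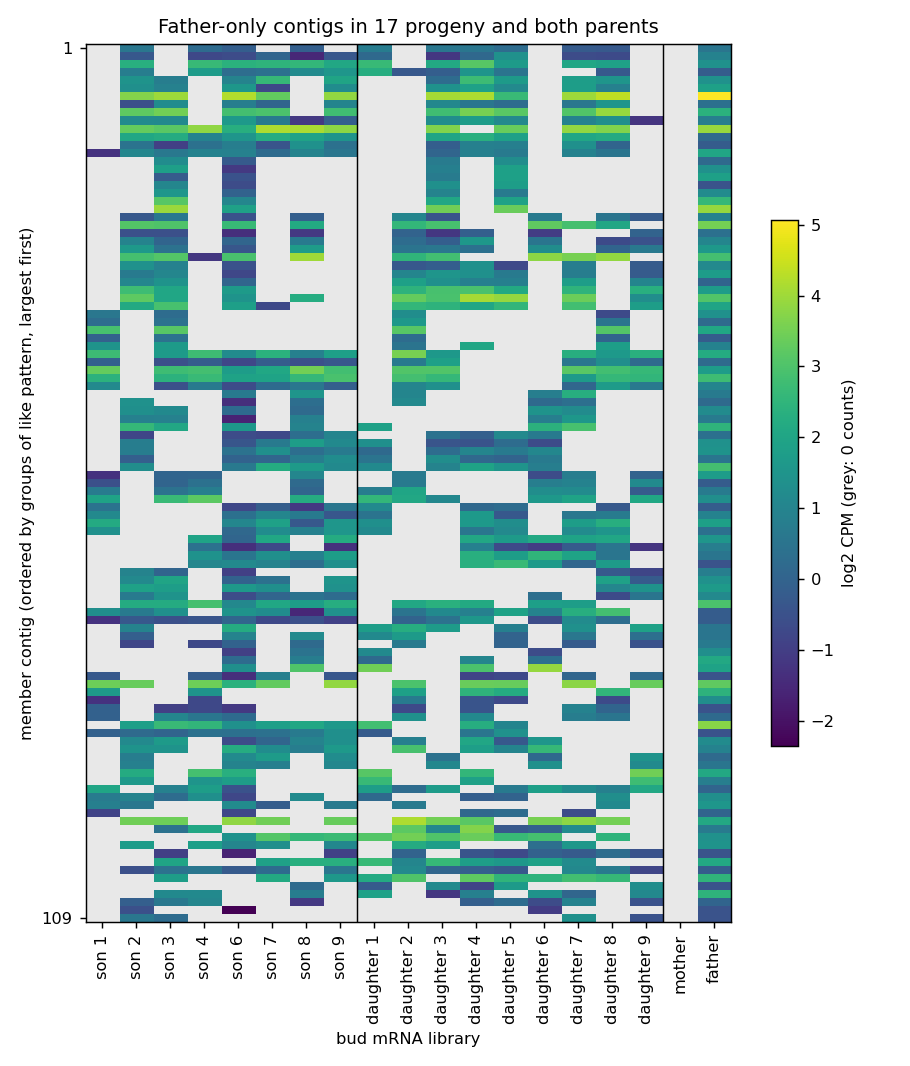
Level of each of the 109 father-only contigs (rows, grouped by likeness of pattern) in 8 sons, 9 daughters, the mother and the father (columns), as log2 CPM, with grey for 0 counts. Blocks of rows with the same grey and coloured trees are sets of contigs that go on and off together, and the father's column is filled throughout by the rule.

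The members had 5 to 230 counts in the father, with a median of 15, or 0.731 to 33.6 CPM. Their mean count over on trees ran from 4 to 107.3, with a median of 14.1. Of 939 on calls, 633 rested on at least 10 counts, and 37 on exactly 3, the lowest value the rule admits. The median on call was 15 counts. The off calls were judged by the count each off library would hold at the member's mean on level. That expected count had a median of 12.4 over the 914 off calls and was under 3 for 12 of them, in 6 members. In 88 members it was at least 5 in every off tree. In the other members at least 1 off tree was too shallow for that, and its state is less certain.

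On trees had about the father's level. The ratio of mean on CPM to father CPM had a median log2 value of 0.06, with quartiles of -0.63 and 0.72. It lay within 2-fold of the father in 79 members, above it in 18 and below it in 12. Over all 101527 contigs with at least 5 counts in the father, the median log2 ratio of mean progeny CPM to father CPM was -0.25. That mean took in all 17 progeny, also those at 0 counts, where the members' mean took in on trees alone. The 2 medians are therefore unlike measures.

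Members were 203 to 3701 bases long with a median of 703.0, and 35 had at least 1000 bases. The median was 311.0 over all contigs of the mRNA table and 909.0 over those with at least 5 counts in the father. Mother-only contigs had a median of 741.0 bases. Long contigs gather more reads and pass count minimums more easily, so length and the rule are not independent.

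The on:off ratio was near 1:1 over all members. Trees were on in 50.7% of the 1853 calls, and the median member was on in 9 of 17 trees. Without son 6 the share was 48.6%, and without son 9 it was 50.8%. Mother-only contigs were on in 54.8% of calls and contigs of both parents in 73.8%. The limits of 3 and 14 on trees bind these shares.

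Member by member, the ratios were more spread than a 1:1 draw over 17 separate trees. Such a draw puts 66.8% of contigs at 7 to 10 on trees, where 58 members (53.2%) lay. Of the others, 28 members were on in 3 to 6 trees and 23 in 11 to 14, or 25.7% and 21.1%, against 16.5% each in the draw. Members that share a pattern are not separate draws, and sons 7 and 9 are nearly the same draw. With the rule applied to 16 trees without son 9, 75 of 118 contigs (63.6%) were on in 6 to 10 trees, where the draw gives 79.0%. Without son 6 instead, 68 of 117 (58.1%) were, against the same 79.0%. Without both sons, 65 of 125 (52.0%) were on in 6 to 9 of 15 trees, against 69.8%. Counting each distinct pattern over the 17 trees once, 39 of 71 (54.9%) lay at 7 to 10, 15 below and 17 above. Mother-only contigs had 62.3% at 7 to 10 on trees.

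The excess at the low end lay at 4 on trees, with 13 members (11.9%) where the draw gives 1.82%. A set of 7 contigs and another of 4 contigs, each with a single pattern, held most of these. At 10 on trees there were 28 members (25.7% against 14.8%), and at 12 there were 13 (11.9% against 4.72%). At the rule's limits, the 1 member on in 3 trees had 3 to 6 counts there and 5 in the father, and the 2 members on in 14 trees had 6 each in the father. Just outside, 4 contigs were on in 1 or 2 trees and 10 in 15 or 16. A further 31 were on in all 17 and 43 in none, and 12 would have joined with 4 counts in the father. Another 107 were lost to 1 or 2 counts in a single tree, most often daughter 1 (12 contigs) or daughter 7 (11 contigs).

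**Figure D3:**
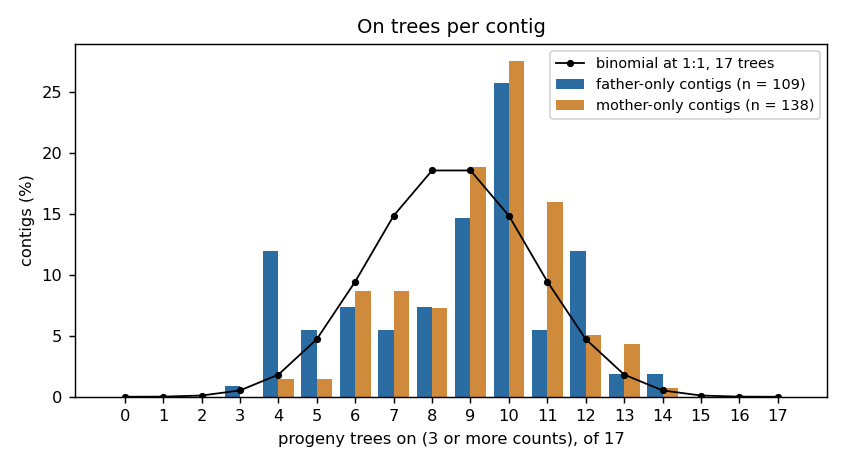
Share of contigs (%) by the number of progeny trees that were on, of 17, for 109 father-only contigs and 138 mother-only contigs (bars), with the binomial share at 1:1 (line). Father-only contigs exceed the line most at 4, 10 and 12 on trees and fall short of it at 7 and 8.

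Members shared patterns with each other far more often than with mother-only contigs. There are 131072 possible on/off patterns over 17 trees, and the 109 members showed 71. Of the members, 58 (53.2%) had a pattern identical to that of at least 1 other member. No member had the pattern of a mother-only contig. Within 1 tree of another member lay 79 members, and within 1 tree of a mother-only contig lay 1. Counted as pairs, 75 of 5886 pairs of members were identical, 40 differed in 1 tree and 44 in 2. Of 15042 pairs of a member with a mother-only contig, 0 were identical, 1 differed in 1 tree and 17 in 2. These are 2.70% and 0.120% of pairs at 0 to 2 trees. Read without son 6, without son 9 or without both, the members still showed 71 patterns, 58 members still shared one, and 0 matched a mother-only contig. Mother-only contigs shared patterns among themselves as well, with 66 patterns over 138 contigs.

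**Figure D4:**
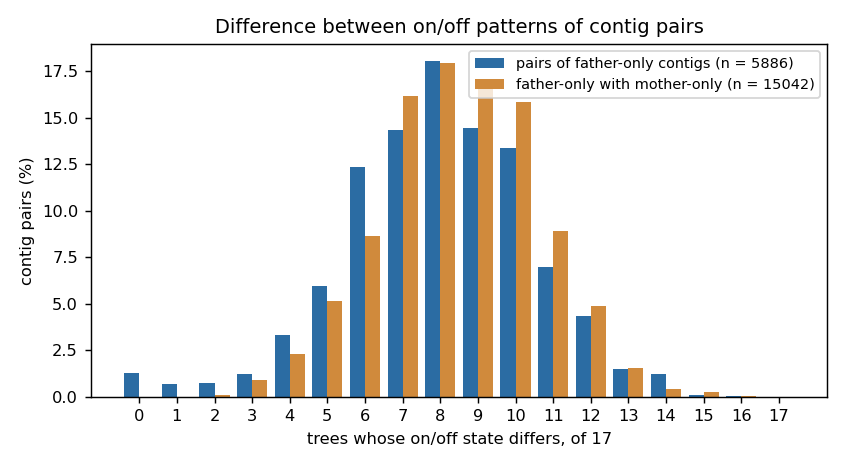
Share of contig pairs (%) by the number of trees, of 17, in which their on/off states differ, for 5886 pairs of father-only contigs and 15042 pairs of a father-only with a mother-only contig. Both peak at 8 trees, and 2.70% of the first against 0.120% of the second differ in 0 to 2 trees.

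The 58 members fell into 20 sets: 1 of 7 contigs, 2 of 5, 3 of 4, 1 of 3 and 13 of 2. No contig is paired with a gene or position, so a set is not a count of genes. Whether contigs of a set are parts of the same transcript was not tested. The set of 7 was on in sons 3 and 6 and daughters 3 and 5 alone. Its contigs were 281 to 2046 bases long. Contig340806DeNovoAssembly, of 281 bases, had 90 counts in son 3, 57 in son 6, 73 in daughter 3, 51 in daughter 5 and 101 in the father. The father's 14.8 CPM lay at least 34.1-fold higher than the mother's floor. Contig340713DeNovoAssembly, of 627 bases, had 51, 32, 28 and 19 counts in the same 4 trees and 41 in the father. All 13 other progeny had 0 counts in each of the 7 contigs, although at the mean on level any of these libraries would have held at least 6.06 counts. Summed over the 7 contigs, the level was 36.1 CPM in son 3, 25.0 in daughter 3, 28.8 in daughter 5 and 31.3 in the father, and 9.47 in son 6.

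A set of 5 contigs was on in sons 2, 3, 6, 7 and 9 and daughters 3, 4, 5, 7 and 8. It held the member with the most counts in the father, Contig155316DeNovoAssembly of 849 bases. That contig had 230 counts in the father and 32 to 284 in the 10 on trees, with a median of 97.5. Its level there was 14.9 ± 4.21 CPM (SD, n = 10), against 33.6 CPM in the father, and the father was at least 77.6-fold higher than the mother's floor. In the 7 off trees it had 0 counts where at least 52.5 were expected at that level. Contig320890DeNovoAssembly, of 368 bases, had 39 to 111 counts in the same 10 trees, with a median of 58, and 36 in the father.

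The other set of 5 was on in all usable sons except son 2 and in daughters 2, 3, 7, 8 and 9. Contig241161DeNovoAssembly, of 297 bases, had 15 to 58 counts in these 12 trees, with a median of 39.5, and 47 in the father. Contig147274DeNovoAssembly, of 618 bases, had 15 to 58 counts, with a median of 31, and 32 in the father. This set also held the longest member, of 3701 bases. A set of 4 was on in sons 2, 6, 7, 8 and 9 and daughters 1, 3, 4, 5 and 6. In it Contig318763DeNovoAssembly, of 244 bases, had 8 to 31 counts over 10 on trees, with a median of 19, and 49 in the father. Contig186013DeNovoAssembly, of 1634 bases, had 4 to 21 counts there, with a median of 11.5, and 19 in the father.

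Of the 6 sets with at least 4 contigs, 5 were on in son 6. Its summed CPM was the lowest of all on trees in 4 of these 5. In the set with Contig155316DeNovoAssembly it was 32.5 CPM, within the 22.2 to 43.2 CPM of the other 9 on trees. In the set with Contig241161DeNovoAssembly it was 10.8 CPM, below the other trees' 15.4 to 31.0.

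Within the on trees, the levels of contigs with a shared pattern were loosely related. For the 47 pairs of identical pattern on in at least 6 trees, the correlation of log2 CPM over the on trees had a median of 0.23 and ran from -0.55 to 0.78. These correlations rest on 6 to 12 libraries that both contigs share, at low counts, and are given as a description.

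Patterns also formed chains in which neighbours differed in few trees. Linking members 0 to 1 trees apart gave 23 groups of at least 2 contigs, holding 79 members. At up to 2 trees there were 22 groups with 92 members, the largest of 14. That group joined the set of Contig155316DeNovoAssembly to 9 further members, among them Contig339782DeNovoAssembly of 1110 bases. It was on in 11 trees, at 50 to 152 counts with a median of 84, and had 104 in the father, or 12.5 ± 3.81 CPM over on trees (SD, n = 11). The group was formed after the values were seen.

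Exactly opposite patterns, as 2 alleles of the father would give if both were absent from the mother, did not occur. The nearest pair differed in 16 of 17 trees, Contig308167DeNovoAssembly with 9 on trees and Contig393689DeNovoAssembly with 7. They were named after their values were seen. Both were off in daughter 5 alone among the trees, with 0 counts each. At a difference of at least 15 trees there were 12 members. Among contigs present in both parents, 6 shared the pattern of 1 member, Contig212550DeNovoAssembly, which was on in 14 trees.

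Other members with high CPM over on trees had patterns of their own. Contig102956DeNovoAssembly, of 1638 bases, had 49 to 221 counts in 11 trees, with a median of 74, and 30 in the father. Contig186574DeNovoAssembly, of 3199 bases, had 39 to 110 counts in 11 trees, with a median of 71, and 66 in the father. The first lay 3 trees from its nearest member and the second 2. CPM is not scaled by length, so these values do not rank the contigs by abundance.

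A Y-linked contig would be on in all 8 usable sons and off in all 9 daughters, and the rule drops any contig that is off in all daughters. No member can therefore follow sex exactly, and the matches are described without a test. The rule dropped 5 contigs for this reason, of which 4 were on in all 8 sons and 1 in 5. Among the members the state matched sex in at most 14 of 17 trees and opposed it in at most 12, with a median match of 9. The state matched or opposed sex in at least 12 trees in 14 members (12.8%), where 14.3% of 1:1 draws reach that.

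The member nearest to sex was Contig321767DeNovoAssembly, of 394 bases. It was on in all 8 sons, at 6 to 20 counts with 5 in the father, and in daughters 1, 4 and 5 at 3, 8 and 13 counts. The other 6 daughters had 0. Contig108499DeNovoAssembly, of 1303 bases, had the same 3 daughters on, at 25, 26 and 10 counts. It was off in son 1 and had 23 to 40 counts in the other 7 sons, with 92 in the father. These 2 patterns differed in son 1 alone. The matches at 12 trees included Contig105060DeNovoAssembly, of 727 bases, on in 8 sons and 5 daughters at 3 to 29 counts, with 28 in the father. Contig339782DeNovoAssembly, described above, was on in 7 sons and 4 daughters. Contig355452DeNovoAssembly, of 838 bases, was on in 5 sons and 2 daughters at 10 to 48 counts, with 22 in the father. On the opposite side, Contig98549DeNovoAssembly, of 1338 bases, was on in 7 daughters and 3 sons at 16 to 51 counts, with 39 in the father.

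The share of on calls was 53.1% in sons and 48.5% in daughters. The higher share in sons leaned on son 6: without it the shares were 48.8% and 48.5%. Of the members, 73 were on in a larger share of sons and 36 in a larger share of daughters. The usable sons were fewer than the daughters, so a member on in equal numbers of both had the larger share in sons. The 73 include 41 such members. The counts were 61 and 48 without son 6, and 78 and 31 without son 9. Without sons 6 and 9 the direction of the counts turned, to 44 against 54. Leaving out a son also changes the number of sons, so no lean to either sex is read from these counts.

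Levels of sons and daughters were compared with edgeR's quasi-likelihood test on 62831 contigs that passed its count filter, using 8 sons and 9 daughters. The test called 30 contigs (0.0477%) at a Benjamini-Hochberg adjusted p under 0.05, of which 10 (0.0159%) were higher in sons and 20 (0.0318%) in daughters. The filter kept 37 of the 109 members, and 0 of them were called. Of these members 0 had an unadjusted p under 0.05, against 7.08% of all contigs tested, and DESeq2 also called 0. These counts of 0 are partly fixed, since the rule used the same progeny counts and dropped the contigs that were off in all daughters. Nothing is read from them about the members. The lowest p belonged to Contig98549DeNovoAssembly, at 1.37 ± 1.93 CPM in sons (SD, n = 8) and 5.17 ± 3.28 CPM in daughters (SD, n = 9). Sons differed from daughters by -2.01 on the log2 scale, SE 0.98 (adjusted p = 0.723 by edgeR). For Contig108499DeNovoAssembly the values were 3.66 ± 1.97 and 1.55 ± 2.65 CPM, a log2 difference of 1.37, SE 0.89 (adjusted p = 0.816 by edgeR). Apart from 3 members that were on in all 8 sons, every member had on and off trees in both sexes. That makes the spread within a sex wide. A p that misses the threshold does not show that the sexes have equal levels.

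Trees differed in how many members were on. Sons 1 to 4 had 32, 62, 70 and 42 members on, and sons 6 to 9 had 91, 53, 60 and 53. Daughters had 31 to 65, with a median of 55. Daughter 1, the shallowest library, had the fewest, and son 6, the deepest, the most. The rule used these on and off calls, and its count minimums are easier to reach in a deeper library. The correlations below are therefore a description, and nothing is read from their p-values. Over the 17 trees the number on correlated with the library total at a Pearson r of 0.56 (permutation test, two-sided p = 0.0301, adjusted over 2 coefficients 0.0603) and a Spearman rho of 0.08 (permutation p = 0.772, adjusted 0.772). Leaving out son 6 and daughter 1, the totals farthest from the median, gave an r of -0.24 (permutation p = 0.384), so the relation rests on those trees. Without son 6 alone r was 0.06 (permutation p = 0.810). Within the 8 sons r was 0.72 (exact permutation p = 0.0643) and within the 9 daughters 0.11 (exact permutation p = 0.782).

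**Figure D5:**
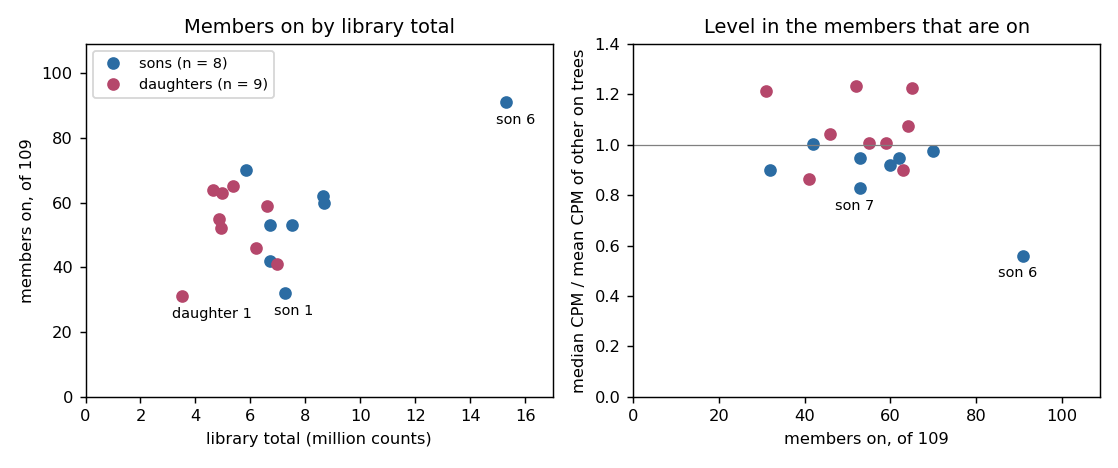
Left, members on (of 109) against library total for 8 sons and 9 daughters. Right, the median ratio of a tree's CPM to the mean CPM of the other on trees, over the members it has on, against members on. Son 6 lies apart in both, at 91 members and a ratio of 0.560, and the other trees have 31 to 70 members on.

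Small RNA was not used to choose the members. Small RNAs are short regulatory RNAs that can pair with transcripts and silence them, and the title of the series names one encoded on the Y chromosome. Totals were 14168901 counts in the father's bud library and 19315399 in the mother's. With 1 library per parent these values have no replicate check. Although their mRNA was at 0 in the mother, 101 of the 109 members (92.7%) had small RNA counts in her, and 98 had them in the father. Such counts were found in the mother for 77.5% of all contigs, for 92.7% of those with at least 5 mRNA counts in the father, and for 86.4% of those that also had 0 mRNA counts in the mother. A mapped small RNA need not come from the contig itself, since short reads can match other copies.

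Of the 68 members with at least 10 small RNA counts over both parents, 5 (7.35%) were at least 4-fold higher in the father by CPM and 1 (1.47%) was at least 4-fold higher in the mother. Over all 169824 contigs with that many counts the shares were 1.72% and 2.07%. Among contigs with at least 5 mRNA counts in the father and 0 in the mother they were 3.05% and 2.25%. In mother-only contigs the balance was the other way, with 1 of 83 higher in the father and 7 in the mother. The median ratio of father to mother CPM was 1.09 in the members and 0.929 over all contigs.

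A pair of contigs carried most of the small RNA counted on the members in the father. Contig111402DeNovoAssembly, of 1199 bases, had 4074 small RNA counts in the father and 45 in the mother, a CPM ratio of 123 (95% interval 92.1 to 169). Its mRNA was on in 4 sons and 3 daughters at 13 to 52 counts, with 38 in the father. Contig108499DeNovoAssembly, the member second nearest to sex, had 3556 counts against 293, a ratio of 16.5 (14.7 to 18.7). Together they held 56.3% of the members' small RNA counts in the father. Summed over all members the ratio was 2.13 (2.07 to 2.19), and without these 2 contigs it was 0.967 (0.935 to 1.00). The members with the most small RNA in the mother had ratios just below 1. Contig355452DeNovoAssembly had 1934 counts in the father and 2828 in the mother, a ratio of 0.932 (0.879 to 0.988), and Contig186574DeNovoAssembly 678 and 988, a ratio of 0.935 (0.847 to 1.03). The other 3 members higher in the father had few counts. Contig257062DeNovoAssembly had 63 against 3, a ratio of 28.6 (9.36 to 143), and Contig340713DeNovoAssembly, of the set of 7, had 21 against 2, a ratio of 14.3 (3.50 to 126). Contig105637DeNovoAssembly had 8 against 2, a ratio of 5.45 with an interval that nearly reached 1 (1.09 to 52.7). The member higher in the mother, Contig393689DeNovoAssembly, had 2 counts in the father and 14 in her, a ratio of 0.195 (0.0215 to 0.848). No small RNA was counted on 4 members.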

How the data were processed

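Raw read counts per assembled contig were deposited for bud mRNA (20 libraries) and bud small RNA (2 libraries), with contig lengths beside the latter. BWA, DESeq 1.14 and R 3.0.1 are listed in the submitters' processing notes. How reads with several matches were counted, and whether strand was used, is not given in the sources used here, so near-identical copies may share or split reads. Of the contig IDs, 0 matched 27971 annotated genes of assembly ASM1463336v1. Contig sequences and flower small RNA were not analysed here.

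The members, named contigs and lists were chosen with earlier results of these data known. Contigs were picked by the stated rule in Python 3.11.15 (pandas 2.3.3, scipy 1.17.1). CPM used the column totals. Named contigs were the 4 of highest mean CPM over on trees, 2 of most father CPM in each of the 4 largest sets, 6 nearest to sex, edgeR calls, and 2 of most small RNA in each parent. Sexes were compared with edgeR 4.0.16 (R 4.3.3; TMM, filterByExpr, robust quasi-likelihood), and with DESeq2 1.42.0. The SE is the log2 fold change divided by the square root of F. On simulated counts for 60474 contigs the edgeR fit recovered 90.0% of contigs changed 4-fold, with 4.26% of calls false. The simulation used the spread that edgeR fitted for contigs of like level, and no on/off states. It therefore gives no recovery rate for the members. Correlations used 100000 permutations, or all orders for a single sex. Intervals of small RNA ratios are exact conditional 95% intervals. Each tree is a separate individual by its label, with 1 library.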

Additional observations from a re-analysis of the deposited data

Results flagged for a closer look

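Values were compared library by library within the 8 usable sons and within the 9 daughters, for totals, members on, level over other on trees and the CPM of named contigs. A value was listed when its gap to the next one was a large share of the group's range, which chance meets in about 1 of 20 groups. Of 40 groups, 6 values were listed. Contigs that are off in most trees meet this easily. Their causes were not tested.

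Son 6 had a total of 15314430 counts, where the other sons had 5823321 to 8661160. Its level over the other on trees was 0.560, against 0.828 to 1.00 in the other sons. Son 3 had 15.5 CPM of Contig340806DeNovoAssembly, where the only other son that was on, son 6, had 3.72 CPM. It also had 8.76 CPM of Contig340713DeNovoAssembly, against 2.09 CPM in son 6. Son 9 had 2.53 CPM of Contig321767DeNovoAssembly, where the other sons had 0.964 to 1.62 CPM. Daughter 2 had 11.7 CPM of Contig147274DeNovoAssembly, where the other daughters had 0 to 5.17 CPM.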

How the results depend on the processing

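Settings that leave out son 6, son 9 or daughter 1 were added after seeing the data. The share of on calls stayed at 43.2% to 53.4% in all settings. The 109 members became 37 with at least 20 counts in the father, 66 with progeny at 0 or at least 5 counts, 35 at 0 or at least 10, and 1259 with 1 or 2 counts taken as off. The 58 members that share a pattern (53.2%) became 13 (35.1%), 34 (51.5%), 11 (31.4%) and 283 (22.5%) under these. The 58 with 7 to 10 trees on (53.2%) became 20 (54.1%), 34 (51.5%), 13 (37.1%) and 463 (36.8%). The 1:1 draw gives 66.8% there. Other rules gave 77 to 126 members. The 30 of 62831 contigs called between the sexes became 414 of 410876 without a filter and 94 of 62831 with DESeq2. The 0 of 37 members called became 1 of 109 without a filter, Contig143052DeNovoAssembly, higher in daughters. As above, nothing is read from these counts about the members. The correlation of 0.56 between members on and library total was 0.72 in sons, 0.11 in daughters, 0.0648 without son 6 and -0.24 without son 6 and daughter 1. The small RNA ratio of 2.13 was 1.56 on raw counts and 2.71 without the member of most counts. Of small RNA differences, the 6 members past 4-fold became 3 with at least 50 counts required, all higher in the father (9.68% of members with that many counts, 0.788% of all contigs). At 2-fold they became 17, with 16.2% of members higher in the father and 8.82% in the mother, against 9.27% and 10.8% of all contigs. The causes were not tested beyond what the rules themselves set. No paired analysis was possible because the numbers of the trees are labels in accession order. Depth limits an off call to members that would show counts at their on level.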
